A study of Mus musculus with 11 samples.

Results

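One control library of microglia-like cells (CTR µ) was set beside 9 libraries of cells sorted from mouse brain after transplantation of blood-forming cells, to see where control cells lay outside the range of post-transplant cells. The 9 libraries were chosen by their labels, as the complete layout of 3 delivery routes by 3 sorted populations, so the comparison used 10 of the 11 libraries of the series. The routes were intravenous (IV), into the cerebral ventricles (ICV) and lumbar intrathecal (ITL), and the populations carried the labels CD45.2 µ, CD45.1 TAµ and CD45.1 µ, after the 2 alleles of the pan-leukocyte antigen CD45 that tell donor from host cells in a mouse graft. The series is titled as work on an Alzheimer's disease mouse model, and its design transplants lineage-negative stem and progenitor cells into the ventricles, with intravenous marrow or stem cell fractions given at the same time or some days later. The labels expand neither µ nor TAµ, leave unsaid which allele is the host's, and give for CTR only that it is a control, with no genotype. For none of the 10 libraries do they give age, sex, strain, conditioning or how many animals were pooled. CTR was a single library, whose own spread is unknown, and no test was made. The results are levels, differences and ranges over the 9, which differ in route and population and are not replicates.

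Microglia are the resident macrophages of the brain. They are seeded from the yolk sac before birth, renew themselves locally and hold a tissue-specific program that depends on TGF-beta signalling and on the transcription factor Sall1. Cells that enter the brain from transplanted marrow take up the same niche and many microglial genes, but are known to keep features of blood-derived macrophages, such as low Sall1 and high Apoe and Ms4a7. A sort on surface markers can collect both kinds, together with macrophages of the brain's borders, monocytes and traces of other cells.

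Levels are given as CPM, read counts divided by a library size corrected for composition, and differences as the log2 level in CTR minus the median log2 level of the 9. A gene was called above or below when CTR lay outside the lowest and highest of the 9 libraries. Of 14724 genes tested, 1266 (8.60%) were above the range and 716 (4.86%) below it, and 99 (0.672%) were above and 142 (0.964%) below by more than 1 log2 unit (far above and far below in what follows). Scaling by library totals alone gave 830 above and 931 below, so the balance between the directions depended on the scaling. Without IV CD45.2 µ, 1118 genes were below and 266 far below. Without ITL CD45.2 µ, 177 were far above. Of the 99 genes far above, 22 were small nucleolar RNAs and 16 reached 32 CPM in CTR. Of the 142 far below, 53 had at least 32 CPM in even the lowest of the 9. The library that lay nearest to CTR was ITL CD45.2 µ for 44 of those 142 genes and IV CD45.2 µ for 43. Across genes, CTR correlated with the 9 at a Spearman rho of 0.861 to 0.944 and the 9 with each other at 0.810 to 0.974, as a description of libraries that share a scaling.

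CTR held 13066068 counts and 14530 detected genes, and the 9 held between 6090589 and 21282823 counts and between 10477 and 15492 detected genes. The fewest genes were detected in IV CD45.2 µ, and the next fewest in ICV CD45.1 µ. Of the genes that define the labelled cell type, Ptprc (CD45) stood at 530 CPM in the control and 378 to 862 CPM in the others. The integrin gene Itgam had 1501 CPM and 724 to 1579 CPM, and Spi1, the lineage factor of macrophages, 203 CPM and 164 to 218 CPM. All 3 lay inside the range. The X-inactivation transcript Xist had 0 counts in CTR and 11.5 to 6922 CPM in the 9, and the sum over Y-linked transcripts was 336 CPM, against 1.32 to 457 CPM. The libraries nearest to CTR in these transcripts were IV CD45.1 TAµ (Xist 11.5 CPM, Y-linked 457 CPM) and ITL CD45.1 TAµ (54.7 and 315 CPM), and the part of sex in the results was not tested. In bulk libraries, fewer cells of a type and less RNA per cell cannot be told apart.

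The mean level of homeostatic microglia genes was higher in CTR (9.53 log2 CPM) than in any post-transplant library (6.46 to 8.83). Of 35 homeostatic microglia genes tested, 29 were above the range and 0 below, against 8.60% of all genes above it. The median difference was 1.38 log2 units, against 0.05 over all genes, and 1.34 without the 5 members that an earlier look at these data had named. Against 1 population at a time, 32 of 35 members exceeded all 3 CD45.1 µ libraries and 32 all 3 CD45.1 TAµ libraries. For CD45.2 µ the count was 30. Over all genes these shares were 27.3%, 25.5% and 23.6%. The 29 members above all 9 enter each of these counts by construction, so the counts are not separate support. The median difference was 1.59, 1.68 and 0.87 log2 units against those populations. The libraries with list means nearest to CTR were ITL CD45.2 µ (8.83), IV CD45.2 µ (8.59) and ITL CD45.1 µ (8.48).

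**Figure D1:**
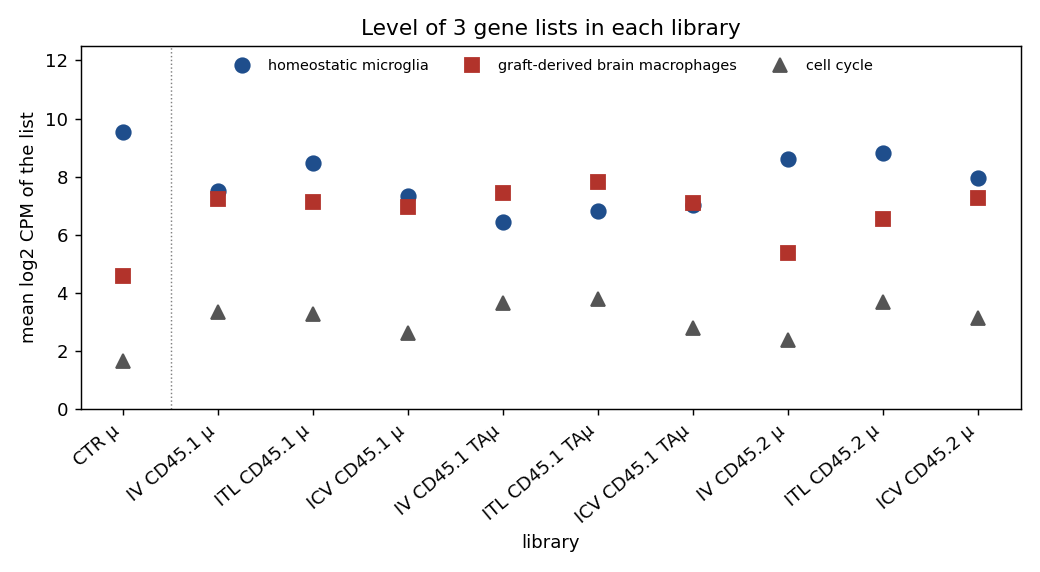
Mean log2 CPM (vertical axis) of the homeostatic microglia, graft-derived brain macrophage and cell cycle lists in each of the 10 libraries (horizontal axis). Each point is 1 library. CTR µ, left of the dotted line, has the highest homeostatic mean (9.53) and the lowest means of the other lists (4.58 and 1.66).

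Among the transcription factors of the program, Sall1, which keeps microglia from becoming inflammatory macrophages, had 1048 CPM in CTR and 2.08, 107 and 653 CPM as the lowest, median and highest of the 9. The 3 TAµ libraries were the lowest (2.08 to 8.53 CPM), and ITL CD45.2 µ the highest. Sall1 was thus 9.80-fold higher in CTR than the median of the 9, and 1.60-fold higher than the nearest library. Its relative Sall3 had the same lowest and highest libraries, with 221 CPM in CTR and 0.695, 30.6 and 185 CPM in the 9. Mef2c, a factor bound at microglial enhancers, differed less, at 704 CPM against 451, 545 and 638 CPM. Of 43 lineage factors tested, 12 were above the range and 5 below, against 8.60% and 4.86% of all genes. Those above included Ets1 (137 CPM against 52.9 to 94.6 CPM). With library totals in place of composition scaling 8 were above, against 830 of all 14724 genes.

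Several surface proteins by which microglia sense injury were also above the range. P2ry12, the ADP receptor that steers process movement, had 5286 CPM in CTR and 665, 1268 and 3185 CPM in the 9, a 4.17-fold difference from the median. Gpr34, a lysophosphatidylserine receptor, had 1702 CPM against 327, 545 and 1128 CPM. Entpd1 (CD39), which breaks down extracellular ATP, had 1239 CPM against 381, 489 and 854 CPM. For all 3, ITL CD45.2 µ was the nearest library. Gpr34 and Entpd1 were named by their gap, so lying outside the 9 was part of their choice. P2rx4, an ATP-gated channel of activated microglia, went the other way, at 38.4 CPM against 45.9 to 160 CPM. Csf1r, the receptor on which microglia depend for survival, had 8429 CPM in CTR and a narrow 3994, 4392 and 5519 CPM in the 9.

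Surface and metabolic genes of the program gave wide spreads among the 9. Slc2a5, a fructose transporter, had 453 CPM in CTR and 7.86, 48.6 and 254 CPM in the 9, with the lowest values in TAµ libraries. Adgrg1 (GPR56), an adhesion receptor of yolk sac-derived microglia, had 829 CPM against 28.3, 119 and 520 CPM. Selplg, the P-selectin ligand, had 2950 CPM against 249, 690 and 2043 CPM. Tmem119, a standard microglial surface marker, had 1383 CPM against 310, 564 and 903 CPM. The phospholipid flippase gene Atp8a2 is not in the homeostatic list and was named by its gap, so lying outside the 9 was part of its choice. It had 149 CPM in CTR, 0.473 to 1.39 CPM in the TAµ libraries and at most 72.0 CPM elsewhere. Cst3, an abundant cysteine protease inhibitor, had 9564 CPM against 1605, 3786 and 5425 CPM. The 6 homeostatic genes not above the range were Fcrls, Ltc4s, Rtn1, P2ry6, Upk1b and Pmepa1, and Pmepa1, a feedback inhibitor of TGF-beta signalling, was the only 1 of the 35 below the median (252 CPM against 197, 451 and 649 CPM). These 6 were chosen for naming after their values were seen.

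**Figure D2:**
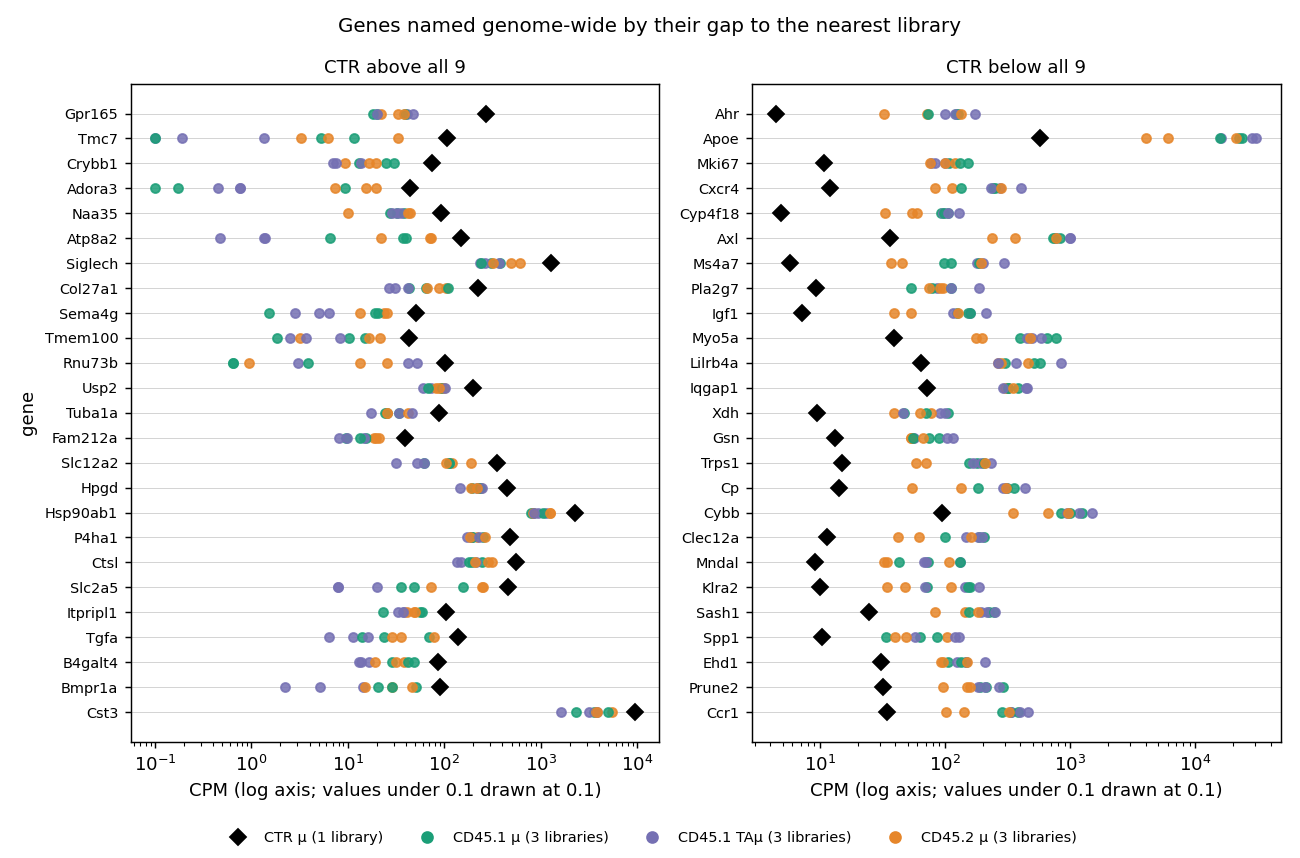
CPM on a log axis for the 25 genes with the widest gap between CTR and the nearest library in each direction, in genes reaching 32 CPM. Diamonds are CTR µ and circles the 9 post-transplant libraries, coloured by population. CTR lies outside the circles in every row because the genes were chosen for that. The TAµ circles are the lowest for Slc2a5.

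TGF-beta is the signal that holds the homeostatic program. Of 30 genes of this pathway tested, 6 were above the range and 0 below, against 8.60% and 4.86% of all genes. The median difference was 0.12. The receptor gene Tgfbr1 had 3102 CPM in CTR and 1553, 1842 and 2162 CPM in the 9, a 1.68-fold difference from the median. Bmpr1a, a receptor for bone morphogenetic proteins, had 89.8 CPM against 2.21, 20.4 and 50.7 CPM, and Smad7, an inhibitory Smad, had 253 CPM against 77.5, 150 and 186 CPM. The other members above the range were Acvr1, Smad1 and Itgb5.

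Most genes known to mark macrophages that enter the brain from a graft (the graft-derived list) had their lowest level in CTR. Of 29 tested, 22 were below the range, 13 of them by more than 1 log2 unit, and 0 above, against 4.86% and 0.964% of all genes below by those rules. The median difference was -2.62 log2 units, and -2.08 without the 6 members named earlier. Against 1 population at a time, 24 members were below all 3 CD45.1 µ libraries and 26 below all 3 TAµ libraries. For CD45.2 µ the count was 22. Over all genes these shares were 14.7%, 24.7% and 15.2%. The 22 members below all 9 enter each of these counts by construction, so the counts are not separate support. The list's mean level was 4.58 log2 CPM in CTR, 5.37 in IV CD45.2 µ and 6.55 to 7.81 in the other 8 libraries, as the plot of list levels shows. Both this list and the homeostatic list were drawn up with results of these data known, so their direction is not independent evidence.

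Clec12a, an inhibitory lectin of myeloid cells, had 11.4 CPM in CTR and 42.1, 160 and 206 CPM as the lowest, median and highest of the 9. Itga4, the alpha4 integrin by which leukocytes enter tissue, had 24.9 CPM against 58.6, 365 and 516 CPM. Lyz2, the lysozyme gene of monocytes and macrophages, had 294 CPM against 510, 1817 and 4141 CPM. In all 3 the nearest library was IV CD45.2 µ, and CTR was outside the range. Cybb, the catalytic subunit of the phagocyte NADPH oxidase, had 93.9 CPM against 349, 967 and 1504 CPM, a 10.3-fold difference from the median. Runx3, a factor of blood-derived leukocytes, had 10.8 CPM against 21.8, 78.5 and 110 CPM. Kit, a receptor tyrosine kinase gene that marks blood progenitors and is not in this list, had 0 counts in CTR. It had 0.471, 2.36 and 6.79 CPM in the 9. The median was thus at least 9.53-fold higher than the 3-count limit of CTR (0.247 CPM). Of 14 primary granule and progenitor genes, Kit was the only 1 below the range, while 12 were higher in CTR than the median.

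Also beyond the graft-derived list, Cp, the copper-carrying ferroxidase ceruloplasmin, had 14.2 CPM in CTR and 53.9, 304 and 434 CPM in the 9, 21.4-fold higher at the median. Pla2g7, which degrades platelet-activating factor, had 9.32 CPM against 52.9, 90.4 and 185 CPM. Myo5a, a vesicle motor, had 38.7 CPM against 175, 480 and 765 CPM. CD45.2 µ libraries of the IV and ITL routes were the lowest of the 9 for Cp and Myo5a, though still above CTR. Cmah, which makes the sialic acid Neu5Gc, had 3.55 CPM against 10.2, 114 and 248 CPM, and Tlr8, an endosomal sensor of RNA, had 7.92 CPM against 24.3, 209 and 280 CPM. Tlr7, its neighbour in the family, was the reverse: 743 CPM in CTR and 279, 403 and 459 CPM in the 9. Of 25 Toll-like receptor genes and adaptors tested, 8 were above the range and 2 below, against 8.60% and 4.86% of all genes. Tlr3 (153 CPM against 32.2 to 110 CPM) was among those above. With library totals 4 were below, against 931 of all 14724 genes. Without IV CD45.2 µ 4 were below, against 1118 of all genes.

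Genes of the disease-associated state, which microglia enter around amyloid plaques, split in both directions. Of 28 tested, 5 were above the range and 6 below, against 8.60% and 4.86% of all genes. The median difference was -0.12. The list's mean was 6.85 log2 CPM in CTR, below the 7.02 to 7.93 of the 9. All 6 below were below by more than 1 log2 unit. Those above were Ctsl, Cd9, Cd83, Ccl3 and Ccl4. Gpnmb, a glycoprotein of lipid-laden macrophages, had 0 counts in CTR and 2.36, 16.2 and 45.0 CPM in the 9, so the median was at least 65.4-fold higher than the 3-count limit. Igf1, a growth factor, had 7.17 CPM against 38.8, 125 and 213 CPM, and Spp1 (osteopontin) had 10.4 CPM against 33.5, 63.4 and 128 CPM. Trem2, the lipid-sensing receptor through which that state is reached, lay inside the range at 445 CPM against 204, 343 and 536 CPM. Of 28 lipid efflux genes, 6 were below and 1 above. Abca1, the cholesterol exporter that loads apolipoprotein E, had 994 CPM against 1503, 2591 and 3178 CPM.

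**Figure D3:**
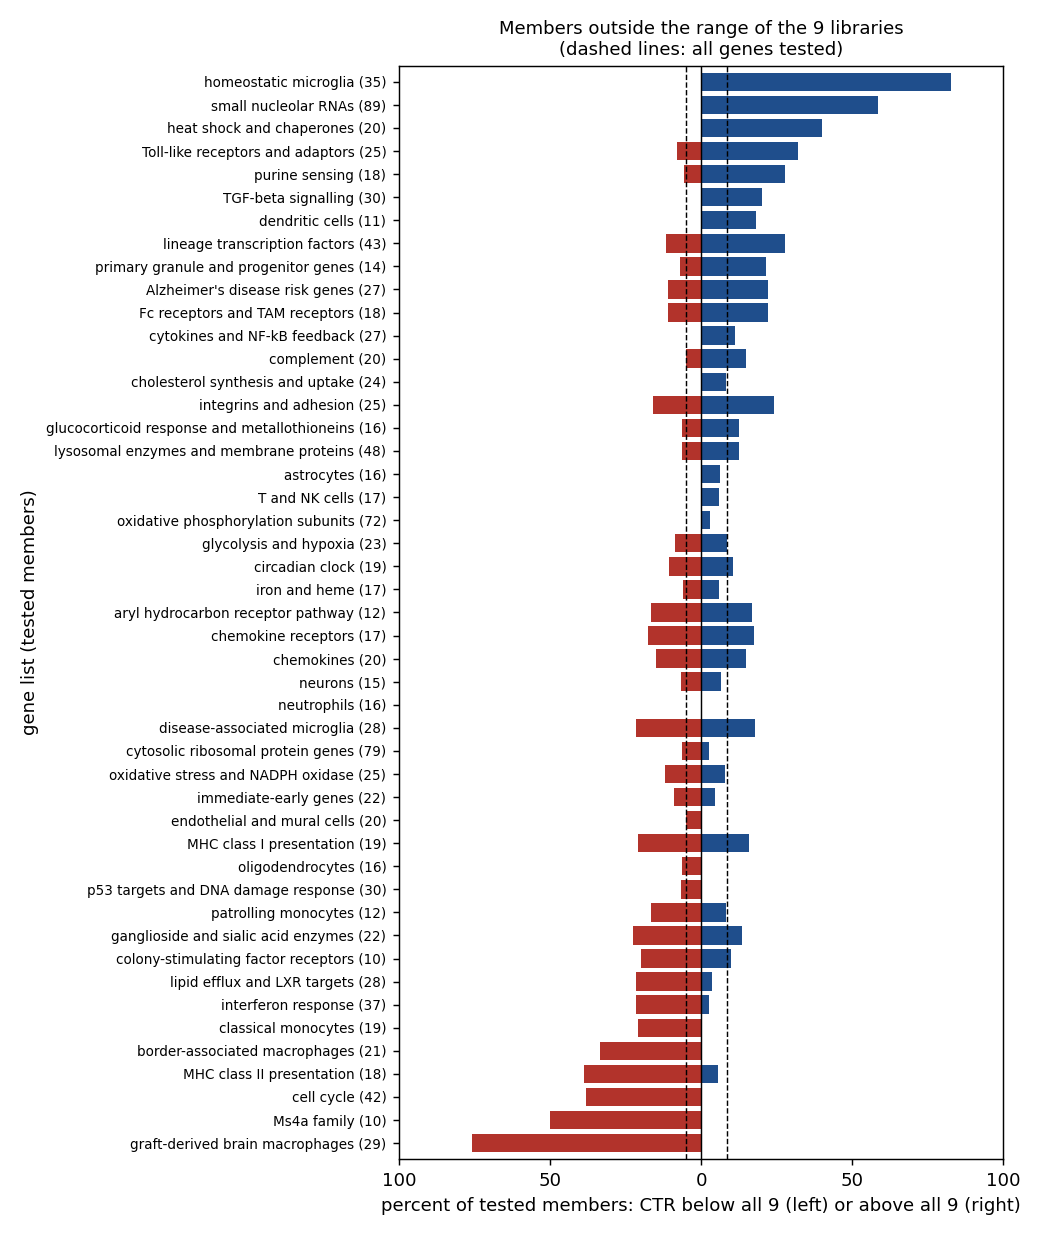
Percent of tested members of each list with at least 10 tested members (number in brackets) for which CTR was above all 9 libraries (right, blue) or below all 9 (left, red). Dashed lines give the same shares over all genes tested, 8.60% above and 4.86% below. Homeostatic microglia genes reach farthest to the right and graft-derived macrophage genes farthest to the left.

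Markers of other myeloid cells differed by list, and are set beside the 8.60% of all genes above the range and 4.86% below. Of 21 border-associated macrophage genes, 7 were below the range and 0 above, with a median difference of -1.05. Without IV CD45.2 µ 11 were below, against 1118 of all 14724 genes. Mrc1, the mannose receptor CD206, had 158 CPM in CTR and 364, 1545 and 2207 CPM in the 9, and Siglec1, a sialic acid-binding receptor, had 13.4 CPM against 31.7, 178 and 227 CPM. For both, the CD45.2 µ libraries of the IV and ITL routes were the nearest to CTR. Of 19 classical monocyte genes, 4 were below and 0 above (median difference -1.46), and the summed level of the list was 478 CPM in CTR, against 179 to 2507 CPM in the 9. Markers of neutrophils lay inside the range for all 16 tested, with S100a9 at 530 CPM in CTR and between 0 and 3806 CPM in the 9, and IV CD45.2 µ was the library with 0. Of 14 primary granule and progenitor genes 3 were above the range and 1 below (median difference 1.24), of 12 patrolling monocyte genes 1 and 2 (-2.14), and of 11 dendritic cell genes, which include the microglial gene Siglech, 2 and 0 (-0.41). The part of these cells in the results was not tested.

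Markers of brain cells that are no macrophages lay mostly inside the range of the 9, as did most genes (8.60% above, 4.86% below). Of 16 astrocyte genes 1 was above and 0 below, of 16 oligodendrocyte genes 0 and 1, of 20 endothelial and mural genes 0 and 1, and of 15 neuron genes 1 and 1. Against the 3 CD45.2 µ libraries alone, 13 of the 16 astrocyte genes, 8 of the 16 oligodendrocyte genes and 11 of the 20 endothelial and mural genes were below all 3, against 15.2% of all genes. Summed levels were 1451 CPM in CTR, against 568 to 1701 CPM in the 9 for the astrocyte genes, 922 CPM and 822 to 2971 CPM for the oligodendrocyte genes, 369 CPM and 244 to 1151 CPM for the endothelial and mural genes, and 18.9 CPM and 12.1 to 43.4 CPM for the neuron genes. In CTR 0 of the astrocyte genes, 1 of the oligodendrocyte genes and 3 of the neuron genes were at 0. The choroid plexus and ependyma genes summed to 7.42 CPM in CTR, against 4.76 to 1293 CPM in the 9, and the highest library was ICV CD45.1 µ, where Ttr, the transthyretin gene, had 772 CPM. T and NK cell genes summed to 44.2 CPM in CTR, against 15.2 to 99.1 CPM in the 9, with 9 of 17 at 0 in CTR. Their part in the results was not tested either.

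Proliferation genes were lower in CTR. Of 42 cell cycle genes tested, 16 were below the range, 8 of them by more than 1 log2 unit, and 0 above. Among all genes, 4.86% were below and 0.964% far below. The median difference was -1.98 log2 units, though -1.32 in the members with a mean of at least 10 CPM. Top2a, the topoisomerase that untangles chromosomes, had 7.09 CPM in CTR and 25.3, 43.9 and 79.7 CPM in the 9. Top2a was named by its gap, so lying outside the 9 was part of its choice. Tk1, a thymidine kinase of S phase, had 1.07 CPM against 6.62, 11.6 and 15.4 CPM, Kif23, a motor of cytokinesis, had 1.73 CPM against 5.20, 14.3 and 26.7 CPM, and Ccnd2, a cyclin of the G1 phase, had 8.74 CPM against 26.9, 58.9 and 99.4 CPM. Pcna, the replication clamp, which is also expressed for repair, lay inside the range at 65.2 CPM against 43.0, 70.8 and 93.2 CPM, as did Mcm3 (52.2 CPM against 34.4 to 64.4 CPM). Without the 2 libraries in which the fewest genes were detected, 28 of the 42 were below, against 1447 of all 14724 genes.

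**Figure D4:**
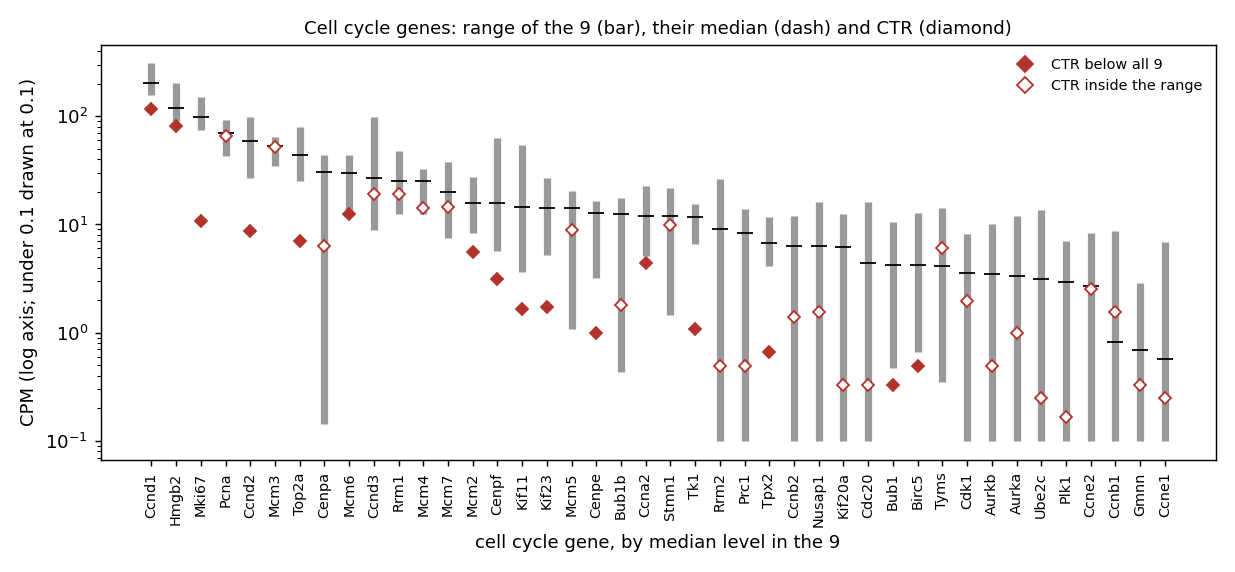
Cell cycle genes ordered by their median in the 9 libraries (horizontal axis), with CPM on a log axis. Grey bars span the lowest to the highest of the 9, dashes are their median and diamonds CTR µ, filled where CTR is below all 9. The 16 filled diamonds include Mki67, Top2a and Tk1, while Pcna and Mcm3 have open diamonds.

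The promoters of Mki67 and Top2a are shown because both genes were below the range and carry the 2 sequence elements known from promoters of late cell cycle genes: the CCAAT box and the cell cycle homology region, searched as TTTGAA. The 250 bases before the start are from RefSeq (build GRCm38.p6; the files use mm39, so positions belong to the reference only), with matches on both strands in capitals. Mki67 is at chr7:135716380-135716629 and Top2a at chr11:99024190-99024439, both on the minus strand.
Mki67: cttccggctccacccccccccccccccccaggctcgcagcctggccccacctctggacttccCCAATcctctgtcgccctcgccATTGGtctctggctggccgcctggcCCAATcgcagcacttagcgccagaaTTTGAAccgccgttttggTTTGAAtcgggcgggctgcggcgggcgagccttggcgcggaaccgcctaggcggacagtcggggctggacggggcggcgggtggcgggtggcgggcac
Top2a: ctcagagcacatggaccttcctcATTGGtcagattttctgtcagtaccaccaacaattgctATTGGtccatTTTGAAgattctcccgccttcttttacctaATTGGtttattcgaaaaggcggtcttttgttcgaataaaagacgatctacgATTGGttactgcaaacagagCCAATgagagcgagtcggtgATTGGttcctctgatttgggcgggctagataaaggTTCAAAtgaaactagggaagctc
Mki67 had 3 CCAAT and 2 TTTGAA matches, and Top2a had 6 and 2. A promoter was found for 32 of the 42 genes. CCAAT was in 27 of the 32 (84.4%), against 37.5% of 27025 genes with a promoter and 39.9% of 10972 tested genes with a promoter. TTTGAA was in 10 (31.2%), against 18.3% and 13%. Of the 12 members below the range with a promoter, 10 (83.3%) had CCAAT and 5 (41.7%) TTTGAA. A match is a run of letters and does not show that a factor binds there.

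Several antigen presentation and interferon genes were below the range in CTR as well. Of 18 MHC class II presentation genes, 7 were below the range and 1 above, against 4.86% and 8.60% of all genes. The invariant chain gene Cd74 had 447 CPM in CTR and 755, 1762 and 3054 CPM in the 9, with the 3 TAµ libraries highest (2881 to 3054 CPM). H2-Eb1, a class II beta chain, had 113 CPM against 205, 434 and 1119 CPM, and the peptide editor H2-DMb2 had 2.64 CPM against 8.49, 18.2 and 25.6 CPM. The 1 above was the protease gene Ctss, also a microglial gene, at 4401 CPM against 1956 to 3814 CPM. Ciita, the master activator of class II genes, lay inside the range at 5.77 CPM against 0 to 47.2 CPM.

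Of 37 interferon response genes, 8 were below the range and 1 above, against 4.86% and 8.60% of all genes. The levels of 36 were below the median of the 9 (median difference -0.92). The list's mean was 3.71 log2 CPM in CTR, 3.13 in IV CD45.2 µ and 3.81 to 5.22 in the other 8, so as a list CTR lay inside the range. The 1 above, which was not above with library totals or with DESeq2 size factors, was Irf1 (162 CPM against 74.8 to 160 CPM), by 0.02 log2 units, a margin inside the counting interval of CTR, 155 to 169 CPM. The restriction factor gene Bst2 (tetherin) had 23.3 CPM in CTR and 43.5, 130 and 210 CPM in the 9, and is shown with its promoter (RefSeq GRCm38.p6, chr8:71537473-71537722, minus strand), in which capitals mark 2 overlapping matches to the interferon-stimulated response element (TTTC, any 2 bases, TTTC) on either strand.
Bst2: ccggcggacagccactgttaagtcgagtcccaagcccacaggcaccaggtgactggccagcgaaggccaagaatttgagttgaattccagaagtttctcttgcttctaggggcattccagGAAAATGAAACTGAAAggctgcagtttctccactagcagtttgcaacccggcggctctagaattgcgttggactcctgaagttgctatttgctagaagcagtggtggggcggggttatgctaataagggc
This element was in 15 of the 26 members with a promoter (57.7%) and in 3.46% of all 27025 genes with a promoter. Of the 5 members below the range with a promoter, 4 (80%) had it. Oasl2, which was also below the range at 11.2 CPM against 14.4 to 84.3 CPM, had 0 matches in its 250 bases.

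Chaperone genes were higher in CTR. Of 20 heat shock genes tested, 8 were above the range and 0 below, against 8.60% and 4.86% of all genes. The levels of 19 were above the median (median difference 0.69). Hsp90ab1, a constitutive HSP90 chaperone, had 2252 CPM in CTR and 801, 940 and 1245 CPM in the 9. Hspa8, the constitutive HSC70, had 3773 CPM against 1194, 2019 and 2550 CPM, and its helper Chordc1 had 99.5 CPM against 34.5, 41.0 and 67.8 CPM. These chaperone genes were named by their gap, so lying outside the 9 was part of their choice. The stress-inducible genes Hspa1a (2804 CPM against 1158 to 3662 CPM), Hspa1b and Dnajb1 lay inside the range. Immediate-early genes, which respond to cell handling, were mostly inside it as well, as were most genes. Here 1 of 22 was above and 2 below, against 8.60% and 4.86% of all genes. Egr1 had 2258 CPM against 305 to 3667 CPM.

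Chemokine genes were mixed, with 3 of 20 above the range and 3 below. The shares over all genes were 8.60% above and 4.86% below. Without IV CD45.2 µ 7 chemokine genes were below, against 1118 of all 14724 genes. Ccl3 and Ccl4, ligands that draw in leukocytes, had 833 CPM against 220 to 492 CPM and 756 CPM against 164 to 501 CPM. Ccr1, a chemokine receptor, was the reverse, at 34.2 CPM against 101, 334 and 455 CPM. Adhesion genes split too. F11r (JAM-A) had 426 CPM against 114 to 243 CPM and Jam2 had 108 CPM against 1.14 to 67.0 CPM, while Vcam1, the ligand of the alpha4 integrin, had 30.3 CPM against 57.5, 281 and 655 CPM.

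Small nucleolar RNAs are short guides for the chemical modification of ribosomal RNA that are cut from introns of host genes. These RNAs were higher in CTR: of 89 tested, 52 were above, 22 of them by more than 1 log2 unit, and 0 below. The shares over all genes were 8.60%, 0.672% and 4.86%. The filter asked for 10 counts in any 1 library, so a small RNA that passed only through CTR tends to lie above by construction. Snord33, for example, had 25 counts in CTR and 0 to 0.662 CPM in the 9. How many passed in this way was not counted. Their share of counts was 0.636% in CTR, against 0.0449% to 0.327% elsewhere, so it also varied widely among the 9. The labels give polyA RNA, and the part of library making in these levels was not tested. The RNAs of the Rpl13a introns are printed because they can be read beside their host: Snord32a is at chr7:45127382-45127464 and Snord34 at chr7:45126601-45126670, both on the minus strand inside Rpl13a (chr7:45125558-45128761, GENCODE M21, build GRCm38). Rnu73b, at chr3:86140618-86140688 on the minus strand, lies inside the ribosomal protein gene Rps3a1. Capitals mark the C box TGATGA and the D box CTGA, the motifs that bind the modification proteins, at the first match to TGATGA and the last match to CTGA from the 5′ end. Other matches are in lower case. Snord34 has no match to TGATGA, so only its D box is marked.
Snord32a: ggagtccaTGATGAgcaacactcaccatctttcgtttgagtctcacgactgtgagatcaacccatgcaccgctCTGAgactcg
Snord34: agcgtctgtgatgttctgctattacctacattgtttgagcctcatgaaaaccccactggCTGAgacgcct
Rnu73b: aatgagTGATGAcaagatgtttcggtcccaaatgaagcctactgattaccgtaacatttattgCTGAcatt
Snord32a had 694 CPM in CTR and 7.88, 34.8 and 273 CPM in the 9, while its host Rpl13a had 130 CPM in CTR and 88.8, 138 and 197 CPM in the 9. A different host gene, Gas5, was above the range, at 119 CPM against 43.4, 74.2 and 111 CPM. Snord35a, also of Rpl13a, had 51.2 CPM against 0.522, 3.31 and 28.7 CPM. Rnu73b had 101 CPM against 0.638, 3.83 and 52.3 CPM. For these RNAs ICV CD45.1 TAµ was the nearest library, and it also had the largest share of small nucleolar RNA among the 9 (0.327%). Of 79 cytosolic ribosomal protein genes 2 were above the range and 5 below. With library totals 18 were below, against 931 of all 14724 genes. The ribosomal RNA precursor Rn45s took 18.4% of counts in CTR, inside the 6.98% to 25.1% of the 9.

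**Figure D5:**
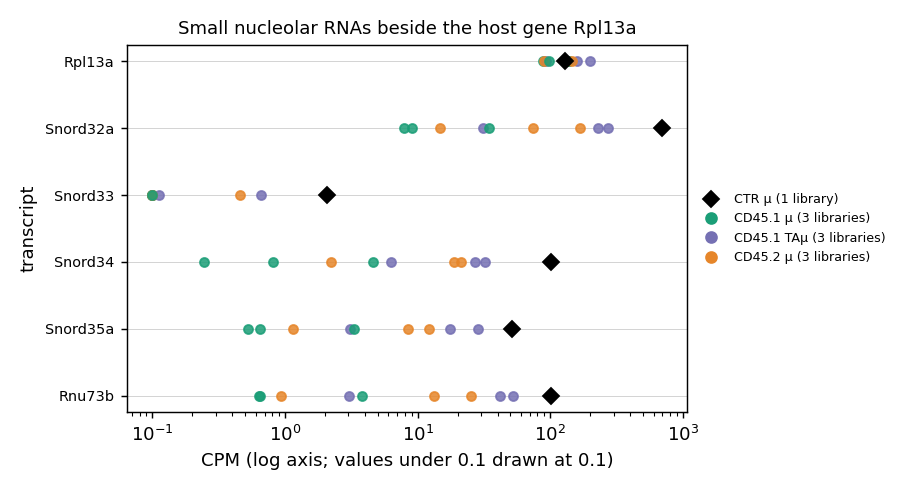
CPM on a log axis for small nucleolar RNAs and the host gene Rpl13a. Diamonds are CTR µ and circles the 9 post-transplant libraries. CTR lies inside the range for Rpl13a and to the right of all 9 for each of the small RNAs.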

How the data were processed

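The labels give polyA RNA from sorted brain cells. The authors deposited raw counts as whole numbers, in a separate table of gene symbols for each library. Reads were aligned with STAR to mm39/GRCm39, per the submitters' processing notes. Its version, the annotation and any filters are not given in the sources at hand. All 24411 symbols were read, 0 columns were left unassigned, and no 2 libraries agreed within sampling noise (lowest chi-square per degree of freedom 42.8 over 45 pairs). Mitochondrial transcripts in the tables numbered 0. Genes with at least 10 counts in 1 library and 15 in all were kept, composition was scaled by TMM over the 10 libraries (edgeR 4.0.16, limma 3.58.1, R 4.3.3), and logarithms used a prior count of 2. CTR levels carry exact 95% Poisson intervals, which cover counting error only, since amplified reads that carry no molecular identifier may repeat a molecule. A count of 0 in CTR allows 0.247 CPM (3 counts). No p-value was computed. Genes were named by rule: 25 each way by the gap to the nearest library, at 32 CPM or more on the higher side, without small nucleolar RNAs (Rnu73b passed, by its symbol), unnamed predicted genes and sex-linked genes; up to 5 per list; and Ptprc, Itgam, Trem2, Cx3cr1, Apoe, Tmem119, P2ry12 and Spi1 in any case. Some genes under this rule are not reported here. Other genes, named after their values were seen, were Sall3, Mef2c, Ets1, Adgrg1, Fcrls, Ltc4s, Rtn1, P2ry6, Upk1b, Pmepa1, Itgb5, Lyz2, Cd9, Cd83, Kif23, Pcna, Mcm3, Ciita, Irf1, Hspa1a, Hspa1b, Dnajb1, Rpl13a, Snord32a, Rps3a1, Gas5, Snord35a and Rn45s. Members, the 48 lists and the rules were chosen with earlier results of these data known. DESeq2 1.42.0 supplied alternative size factors.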

Additional observations from a re-analysis of the deposited data

Results flagged for a closer look

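In 4 lists, the mean log2 CPM of CTR lay above every library of one population and below every library of another, so the same contrast pointed both ways. None of these differences was tested, since each is read from 1 control library. For T and NK cell genes CTR (-1.21) was above the 3 CD45.2 µ libraries (-2.03 to -1.41) and below the 3 TAµ libraries (-0.59 to 1.18), whose means were 2.35 apart. For cholesterol synthesis and uptake CTR (3.04) was above the 3 CD45.1 µ libraries (2.16 to 2.61) and below the TAµ libraries (3.18 to 3.32), which were 0.88 apart. For Toll-like receptors and adaptors CTR lay between CD45.1 µ (6.01 to 6.13) and TAµ (6.24 to 6.30), only 0.22 apart. For sex-linked transcripts the mean of CTR (3.14) was above CD45.2 µ (2.05 to 3.10). It was below both CD45.1 µ (4.79 to 5.65) and TAµ (4.67 to 5.40), with gaps of 2.81 and 2.53 between the population means. This list averages Xist and Tsix with Y-linked genes, so its mean gives no direction for either kind. Taken apart, Xist was lower in CTR (0) than in every CD45.2 µ library, of which IV was lowest (3743 CPM). Y-linked transcripts were higher in CTR (336 CPM) than in every CD45.2 µ library, of which IV was highest (42.6 CPM).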

How the results depend on the processing

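No paired analysis was possible because each group is 1 library. A range over fewer libraries is narrower by construction. Changing the scaling to library totals gave 830 genes above the range. With no filter, 268 were above by more than 1 log2 unit. Of the 8189 genes with a mean of at least 10 CPM, 836 were above, 645 below, 15 far above and 123 far below. Leaving out each library in turn gave 1322 to 1584 genes above, 735 to 1118 below, 106 to 177 far above and 142 to 266 far below. The highest counts below (1118 and 266) came without IV CD45.2 µ, and the 177 without ITL CD45.2 µ. Without ICV CD45.1 µ and IV CD45.2 µ together, 1447 were below and 357 far below. Against 1 population at a time, the genes above, below, far above and far below numbered 4020, 2164, 1441 and 497 for CD45.1 µ, 3756, 3636, 647 and 1125 for TAµ, and 3476, 2241, 485 and 519 for CD45.2 µ. Against 1 route, chosen after seeing the data, they numbered 3839, 2200, 811 and 426 for IV, 3531, 2546, 692 and 695 for ICV, and 3735, 2946, 416 and 725 for ITL.

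The median difference of cell cycle genes was -1.32 at a mean of at least 10 CPM, -1.46 against CD45.2 µ, -1.42 against the mean of the 9 and -1.32 against ICV. When each library was left out it ran from -2.03 to -1.65, that of homeostatic genes from 1.33 to 1.49, and that of graft-derived macrophage genes from -2.75 to -2.57. The sign reversed for colony-stimulating factor receptors (-0.43), to 0.20 at a mean of at least 10 CPM and 0.14 against CD45.1 µ. It reversed for primary granule and progenitor genes (1.24), to -0.38 against TAµ, and for patrolling monocytes (-2.14), to 0.00055 against ICV. The cause was not tested.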

Other observations

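Enzymes that build gangliosides and attach sialic acid split by direction, with 3 of 22 above the range and 5 below. The shares over all genes were 8.60% above and 4.86% below. Without IV CD45.2 µ 5 of these enzymes were above, against 1584 of all 14724 genes. St3gal5, which makes the ganglioside GM3, had 159 CPM in CTR and 5.96, 42.3 and 146 CPM in the 9, and St3gal6 had 358 CPM against 122, 195 and 294 CPM. St8sia4, a polysialyltransferase, had 42.4 CPM against 61.5, 156 and 255 CPM. Of 18 Fc and TAM receptor genes and partners 4 were above the range and 2 below it, Axl and Stab1. With library totals 2 were above, against 830 of all 14724 genes. Fcgr3 had 581 CPM against 200, 301 and 339 CPM, and Fcgr1 had 226 CPM against 110, 127 and 198 CPM. Mertk, which clears dying cells, had 844 CPM against 277, 476 and 752 CPM.

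Class I presentation genes split as well. The class I heavy chain gene H2-K1 had 362 CPM in CTR and 467, 667 and 955 CPM in the 9, and Nlrc5, the activator of class I genes, had 12.4 CPM against 18.5, 63.0 and 91.5 CPM. The chaperone genes Calr (1093 CPM against 529 to 781 CPM) and Pdia3 (929 CPM against 492 to 767 CPM) were above the range. Of 27 Alzheimer's disease risk genes, 6 were above the range and 3, among them Apoe, below, against 8.60% and 4.86% of all genes. Picalm, an adaptor of endocytosis, had 1575 CPM against 658, 895 and 1106 CPM, and Bin1 had 482 CPM against 172, 250 and 400 CPM. Genes in these paragraphs were chosen from lists after their values were seen.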
